A study of Mus musculus with 12 samples.

Results

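Glycolysis and the pentose phosphate pathway were examined through 41 genes in PreMegEs, bone marrow cells that give rise to megakaryocytes and to red cells. The genes were chosen by symbol, and each of the 41 matched 1 of the 41128 rows of the count table. They cover glucose uptake, the hexokinases, upper glycolysis, the PFKFB enzymes, lower glycolysis, lactate production and export, pyruvate dehydrogenase with its kinases, and both branches of the pentose phosphate pathway. RNA-Seq was carried out on 4 groups of sorted PreMegEs of adult C57BL/6 mice aged 12 to 16 weeks, with 3 libraries per group and a pool of 3 mice per library. WT PreMegEs came from wild type mice. The P2+ and P2- PreMegEs came from mice of the genotype Runx1 P1-GFP::P2-hCD4/+, in which GFP reports activity of the distal Runx1 promoter P1 and a truncated human CD4 reports the proximal promoter P2, so that 1 Runx1 allele carries both reporters. GFP-positive cells were separated into P2+ and P2- by the hCD4 reporter. The KO PreMegEs came from RUNX1C knockout mice, which lack the isoform made from P1, and were not separated by a reporter.

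Glycolysis splits glucose into pyruvate and yields ATP without oxygen, and pyruvate then becomes lactate or enters mitochondria through pyruvate dehydrogenase. The pentose phosphate pathway draws on the same glucose phosphate to make NADPH in its oxidative branch and ribose phosphates in its non-oxidative branch. Mature red cells have no mitochondria and live on glycolysis, and inherited loss of pyruvate kinase, hexokinase or glucose phosphate dehydrogenase activity causes anemia. Most steps are served by several isozymes encoded by different genes, and tissues differ in which they use.

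The libraries held between 10726098 and 14445026 counts. Runx1, counted over transcripts of both promoters together, lay between 357 and 387 CPM (counts scaled to library size) in WT, 202 and 217 in P2-, 613 and 659 in P2+ and 341 and 381 in KO PreMegEs, so it separated P2+ from P2- cells but could not check the loss of RUNX1C. The summed level of 9 erythroid genes lay between 1470 and 1700 CPM in P2-, 1040 and 1080 in WT, 384 and 425 in P2+ and 1390 and 1500 in KO PreMegEs, and of the 7 tested between P2+ and P2- cells 6 were lower in P2+. The sum of 8 megakaryocyte genes lay between 120 and 171 CPM in P2-, 541 and 623 in WT, 840 and 1280 in P2+ and 308 and 347 in KO PreMegEs, with 7 of 7 tested genes higher in P2+ than in P2- cells. The sum of 10 neutrophil and monocyte genes lay between 63.8 and 157, 176 and 306, 313 and 438, and 79.2 and 128 CPM in the same order, and 6 of 10 were higher in P2+ than in P2- cells. Of 5 stem cell genes 4 were higher in P2+ (sums between 209 and 262 CPM, against 67.1 and 75.2 in P2-), as were 3 of 3 tested mast and basophil genes (84.3 and 137, against 24.5 and 28.3) and 3 of 5 tested lymphoid genes (41.4 and 98.4, against 16.9 and 25.8). Hba-a1, Gp6 and the T cell genes Cd3d, Cd3e and Cd3g were under 1 CPM in every library. In these bulk samples a change in the mix of cells and a change of RNA per cell cannot be told apart, and the part of these marker differences in the results below was not tested. The P2- and P2+ libraries of replicate 2 stood apart with 13800 and 9310 CPM summed over 14 immediate early genes, against between 205 and 1310 in the other 10 libraries.

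Of the 41 genes, 39 passed the filter on low counts between P2+ and P2- PreMegEs, and Pgam1 and Eno2 did not. P2+ PreMegEs had 12 of these genes higher and 14 lower at an adjusted p under 0.05. Across all 12836 genes tested 20.1% were higher and 17.0% lower, and the median log2 fold change was -0.04 over the 39 genes and -0.02 over all genes. The genes moved in both directions, often within the same enzyme family. At least 2-fold changes were found for 5 of the 39, with a background of 12.7% for both directions together. Slc2a1, Hk3, Aldoc and Pkm were higher in P2+ cells, and Pklr was lower. Hk3 had passed the filter mainly through P2+ libraries, where it was high, since of P2- only replicate 2 reached 1 CPM.

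**Figure D1:**
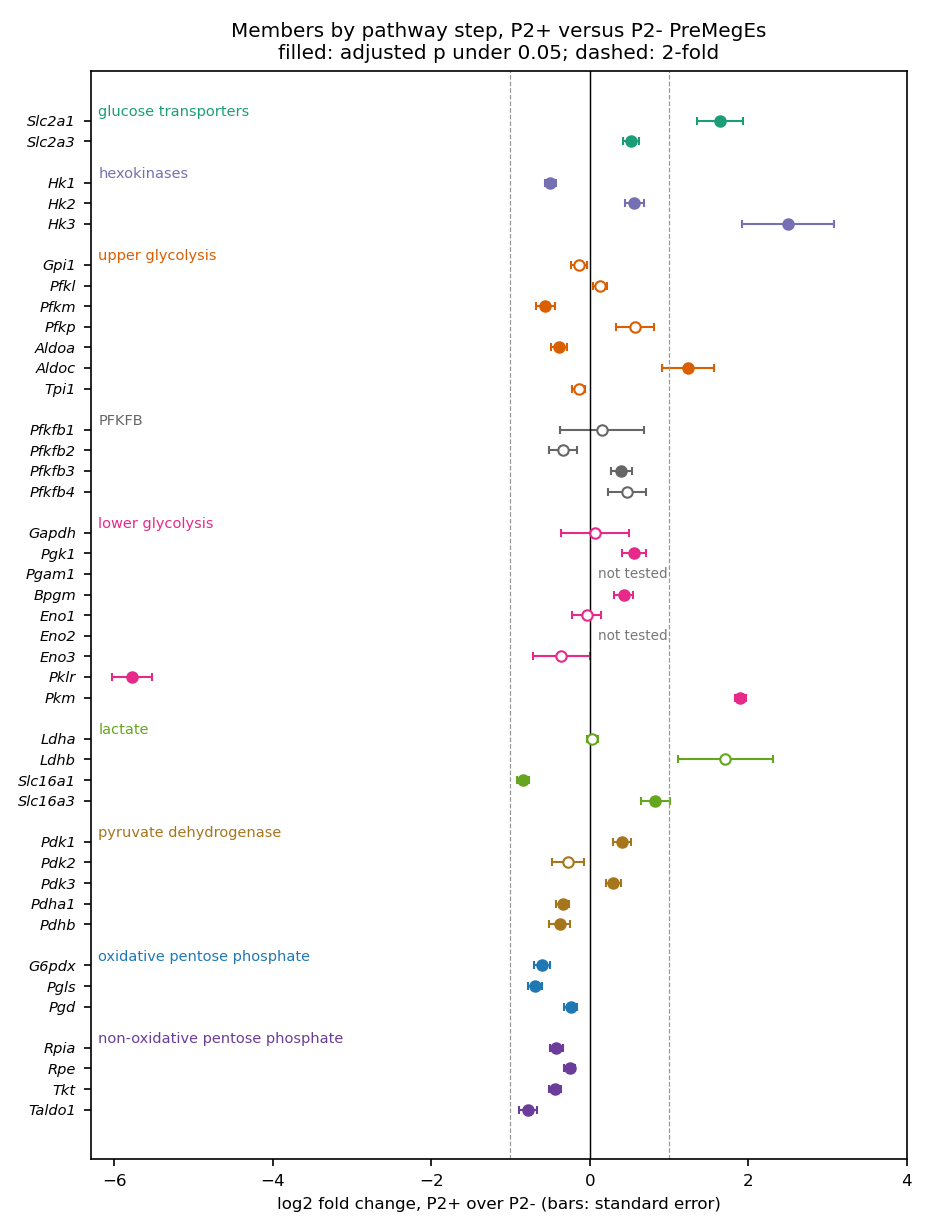
The log2 fold change (x axis) of each gene in P2+ over P2- PreMegEs is plotted in pathway order (y axis), with bars for the standard error, filled points for an adjusted p under 0.05 and dashed lines at 2-fold. Pklr stands alone at -5.78 and Pkm lies at 1.90, while the 7 pentose phosphate genes at the bottom are all filled and between -0.24 and -0.78.

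The widest difference lay at the last step of glycolysis, where pyruvate kinase turns phosphoenolpyruvate into pyruvate. Pklr (ENSMUSG00000041237, GRCm38 chr3:89136142-89146784, + strand) encodes the liver and red cell enzyme, and Pkm (ENSMUSG00000032294, GRCm38 chr9:59656368-59679375, + strand) encodes the muscle type enzyme found in most other tissues. Both genes have more than 1 annotated start, and in Pklr the upstream start is known as the one used in erythroid cells and the downstream start as the one used in liver. The counts are summed over all transcripts and do not show which start was used. To let the control regions of these isozymes be compared, the sequence from 250 bases before to 30 bases after each RefSeq start on GRCm38.p6 is given for both genes. Capitals mark matches on either strand to AGATAA (a motif of Gata1-type factors), CACACCC (a motif of Klf1-type factors), TGTGGT (a RUNX motif) and ACGTG (a core shared by hypoxia response elements and E boxes such as CACGTG, so that a CACGTG match also holds it).
Pklr upstream start, chr3:89135892-89136171: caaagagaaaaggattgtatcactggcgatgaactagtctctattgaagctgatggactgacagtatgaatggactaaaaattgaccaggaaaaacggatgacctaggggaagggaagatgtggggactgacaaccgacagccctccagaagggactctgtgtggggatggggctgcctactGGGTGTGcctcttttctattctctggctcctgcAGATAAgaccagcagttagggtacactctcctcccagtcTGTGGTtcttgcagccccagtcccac
Pklr downstream start, chr3:89136373-89136652: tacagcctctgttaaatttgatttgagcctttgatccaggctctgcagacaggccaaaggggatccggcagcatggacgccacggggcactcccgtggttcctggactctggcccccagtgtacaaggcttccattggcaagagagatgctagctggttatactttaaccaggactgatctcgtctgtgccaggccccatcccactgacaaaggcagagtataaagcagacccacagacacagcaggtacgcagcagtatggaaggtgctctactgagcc
Pkm upstream start, chr9:59656326-59656605: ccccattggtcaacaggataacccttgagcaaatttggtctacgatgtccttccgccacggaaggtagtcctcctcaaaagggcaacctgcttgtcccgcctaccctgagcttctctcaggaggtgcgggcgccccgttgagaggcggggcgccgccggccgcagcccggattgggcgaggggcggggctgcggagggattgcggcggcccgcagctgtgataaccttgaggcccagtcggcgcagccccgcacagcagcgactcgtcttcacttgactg
Pkm downstream start, chr9:59656977-59657256: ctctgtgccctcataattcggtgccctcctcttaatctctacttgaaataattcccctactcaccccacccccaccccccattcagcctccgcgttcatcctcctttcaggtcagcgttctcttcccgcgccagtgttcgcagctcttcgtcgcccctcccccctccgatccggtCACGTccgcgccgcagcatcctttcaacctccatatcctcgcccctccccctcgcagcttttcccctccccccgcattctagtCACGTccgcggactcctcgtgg
The window at the upstream Pklr start held CACACCC on the - strand 68 bases and AGATAA 35 bases before the start, and TGTGGT at base 4 after it. The window at the downstream Pklr start held none of these motifs, nor did that at the upstream Pkm start. The window at the downstream Pkm start held ACGTG on the - strand 75 bases before and 8 bases after the start. Such short motifs are frequent: of 32851 RefSeq promoter windows of 300 bases, 11.2% held AGATAA, 7.95% CACACCC, 16.8% TGTGGT, 19.6% ACGTG and 7.15% CACGTG. Of 61 windows of 40 of the 41 genes, the shares were 13.1%, 13.1%, 14.8%, 39.3% and 9.84%, and several windows of 1 gene overlap or lie close together. A match is a description of the letters and not of binding.

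Pklr was at 128, 89.6 and 123 CPM in the 3 P2- libraries and at 2.85, 2.0 and 1.30 CPM in the 3 P2+ libraries. WT PreMegEs had 37.7, 55.6 and 50.3 CPM and KO PreMegEs 101, 107 and 106 CPM. P2+ libraries were thus the lowest of all and no group but P2- and KO overlapped another. Pklr was 55.1-fold lower in P2+ than in P2- PreMegEs (log2 fold change -5.78 ± 0.25 (SE), edgeR adjusted p = 2.09e-06). It was also lower in P2+ than in WT cells (-4.55 ± 0.25, edgeR adjusted p = 2.69e-06) and higher in P2- than in WT cells (1.25 ± 0.16, edgeR adjusted p = 6.49e-04). Hcn3, a channel gene on the other strand, overlaps 711 bases or 22.0% of the Pklr exon bases, and how strand was used in counting is not stated. Hcn3 had mean levels of 7.20 CPM in P2-, 7.37 in WT, 3.92 in P2+ and 6.29 in KO PreMegEs, so reads from Hcn3 could not be told from those of Pklr at the level seen in P2+ cells.

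Pkm went the other way. Its levels were 55.6, 54.9 and 54.6 CPM in P2-, 125, 105 and 129 CPM in WT and 216, 197 and 198 CPM in P2+ PreMegEs. KO PreMegEs had 74.7, 72.5 and 61.4 CPM. The 4 groups did not overlap, in the order P2-, KO, WT and P2+. Pkm was 3.73-fold higher in P2+ than in P2- cells (1.90 ± 0.07, edgeR adjusted p = 1.52e-06), higher in P2+ than in WT cells (0.77 ± 0.09, edgeR adjusted p = 4.28e-04) and lower in P2- than in WT cells (-1.12 ± 0.09, edgeR adjusted p = 4.94e-05). Per kilobase of exon, Pklr made up 75.8% ± 3.63 (SD, n = 3) of the RPKM of both genes in P2-, 38.1% ± 6.64 in WT, 1.52% ± 0.499 in P2+ and 70.0% ± 2.60 in KO PreMegEs. The shares of P2-, WT and P2+ did not overlap, and with 3 libraries against 3 an exact permutation test cannot give a p below 0.1.

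**Figure D2:**
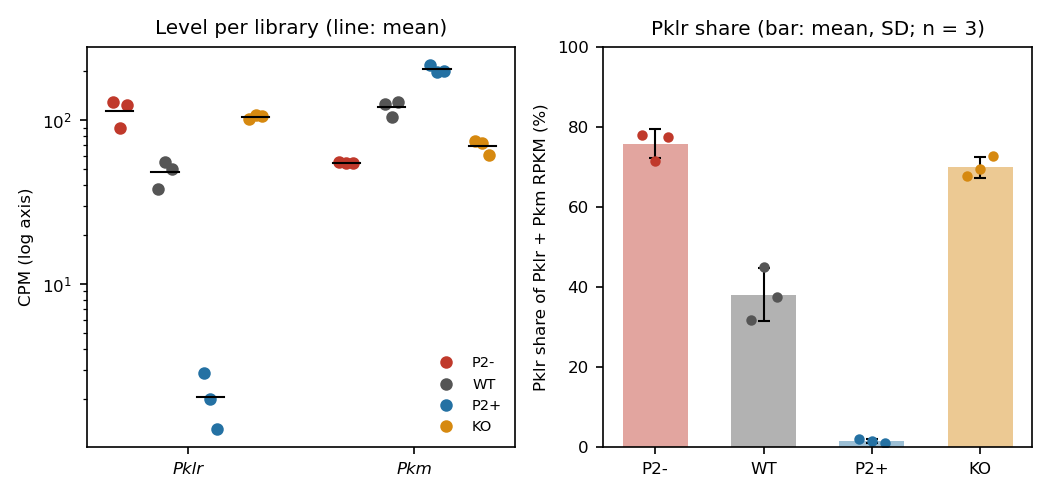
Left, CPM of Pklr and Pkm in each library (log y axis, line at the mean of 3) for P2-, WT, P2+ and KO PreMegEs; right, the Pklr share of the summed Pklr and Pkm RPKM in percent, with bars for the mean, error bars for the SD and points for libraries. Pklr lies between 89.6 and 128 CPM in P2- and KO and at 2.85 CPM or less in P2+, where Pkm stands highest, and the Pklr share goes from 75.8% in P2- to 1.52% in P2+.

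At the entry of the pathway, both glucose transporter genes among the 41 were higher in P2+ than in P2- PreMegEs. Slc2a1 encodes GLUT1 and had 7.0, 16.4 and 12.2 CPM in P2-, 19.1, 18.0 and 23.5 CPM in WT and 27.6, 38.1 and 44.1 CPM in P2+ PreMegEs. The groups did not overlap, and Slc2a1 was 3.12-fold higher in P2+ than in P2- cells (1.64 ± 0.29, edgeR adjusted p = 2.32e-03) and also higher than in WT cells (0.86 ± 0.18, edgeR adjusted p = 8.39e-03). Slc2a3 encodes GLUT3 and had 104, 99.3 and 99.5 CPM in P2- and 134, 167 and 129 CPM in P2+ PreMegEs, with 118, 122 and 141 CPM in WT. It rose by 0.52 ± 0.10 on the log2 scale from P2- to P2+ cells (edgeR adjusted p = 3.97e-03), though P2+ and WT libraries overlapped. Per kilobase Slc2a3 was the more abundant, with 75.3% ± 1.18 (SD, n = 3) of the RPKM of the pair in WT, and the Slc2a1 share was 19.3% ± 6.66 in P2- and 34.4% ± 6.18 in P2+ PreMegEs.

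The hexokinases, which trap glucose in the cell as its phosphate, differed in direction. Hk1 had 565, 555 and 605 CPM in P2-, 460, 445 and 499 CPM in WT and 384, 419 and 408 CPM in P2+ PreMegEs. It was lower in P2+ than in P2- cells (-0.50 ± 0.07, edgeR adjusted p = 9.32e-04) and was the main hexokinase in each group, with 89.9% ± 1.20 (SD, n = 3) of hexokinase RPKM in P2-, 85.5% ± 2.45 in WT and 79.2% ± 2.82 in P2+ PreMegEs. Hk2 had 36.8, 43.8 and 49.7 CPM in P2-, 50.5, 40.8 and 43.9 CPM in WT and 64.6, 58.6 and 67.3 CPM in P2+ PreMegEs, so that P2+ libraries lay above those of both other groups. Hk2 was higher in P2+ than in P2- (0.56 ± 0.12, edgeR adjusted p = 7.49e-03) and WT cells (0.50 ± 0.10, edgeR adjusted p = 7.22e-03). Hk3, known from myeloid cells, was low and uneven, at 0.637, 2.11 and 0.847 CPM in P2-, 10.3, 4.81 and 4.08 CPM in WT and 11.3, 3.38 and 5.11 CPM in P2+ PreMegEs. P2- libraries lay below all WT and P2+ libraries, and Hk3 was 5.64-fold higher in P2+ than in P2- cells (2.5 ± 0.58, edgeR adjusted p = 8.92e-03). In P2- only replicate 2 reached 1 CPM, so Hk3 passed the filter on low counts mainly through P2+ libraries. The filter thus favored this direction. The size of the Hk3 difference moved with single libraries, to a log2 fold change of 1.87 without P2+ replicate 1 and 3.13 without P2- replicate 2, and the call held in both. The sum of neutrophil and monocyte genes was highest in replicate 1 of WT and of P2+, at 306 and 438 CPM, which were also the libraries with most Hk3. Between replicates 2 and 3 the order was reversed in both groups. The sums there were 176 and 193 CPM in WT and 328 and 313 CPM in P2+.

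In upper glycolysis, where the glucose phosphate is rearranged and split, 3 of 7 genes differed between P2+ and P2- PreMegEs, 1 higher and 2 lower. With 20.1% of all genes higher and 17.0% lower, this count was close to the background. Pfkm, the muscle type phosphofructokinase, was lower in P2+ cells (-0.56 ± 0.12, edgeR adjusted p = 5.89e-03), with between 43.1 and 46.7 CPM in P2- and 25.9 and 34.0 CPM in P2+ libraries. Pfkl, the liver type, had between 37.3 and 42.9 CPM in these libraries and a log2 fold change of 0.13 ± 0.09 (edgeR adjusted p = 0.335). Pfkp, the platelet type, had a log2 fold change of 0.57 ± 0.24 (edgeR adjusted p = 0.0879) and passed the test with replicates paired (0.61 ± 0.16, edgeR adjusted p = 5.64e-03). Pfkp made up 5.38% ± 1.80 (SD, n = 3) of phosphofructokinase RPKM in P2- and 9.56% ± 0.148 in P2+ PreMegEs, so the platelet type was a minor form throughout. Exons of Pitrm1 on the other strand overlap 5.6% of the Pfkp exon bases, and Pitrm1 went the other way, with means of 74.0 CPM in P2- and 34.0 CPM in P2+ cells.

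Aldoa, the main aldolase, was lower in P2+ cells (-0.39 ± 0.10, edgeR adjusted p = 0.0121), with between 209 and 260 CPM in P2- and 170 and 181 CPM in P2+ libraries. Aldoc, the brain type aldolase, had 1.59, 1.44 and 2.33 CPM in P2-, 3.67, 3.21 and 3.5 CPM in WT and 4.61, 4.83 and 3.20 CPM in P2+ PreMegEs. P2- libraries were the lowest, and Aldoc was 2.35-fold higher in P2+ cells (1.24 ± 0.33, edgeR adjusted p = 0.0175). It was a minor form, with 2.11% ± 0.401 (SD, n = 3) of aldolase RPKM in P2+ PreMegEs, and the call was lost without P2+ replicate 1, P2+ replicate 2 or P2- replicate 1, with log2 fold changes of 1.18, 1.13 and 1.15. Tpi1, the triose phosphate isomerase, was at -0.14 ± 0.08 (edgeR adjusted p = 0.241). Of the 4 PFKFB genes, whose enzymes set the level of the activator of phosphofructokinase, Pfkfb3 was higher in P2+ cells (0.40 ± 0.13, edgeR adjusted p = 0.0392) and held 65.4% ± 5.17 (SD, n = 3) of PFKFB RPKM there. Its call was lost when any library but P2- replicate 2 was left out (log2 fold changes between 0.28 and 0.43, edgeR adjusted p between 0.0791 and 0.118). Pfkfb2 was called lower with replicates paired (-0.36 ± 0.13, edgeR adjusted p = 0.0334, against 0.177 unpaired).

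Lower glycolysis other than pyruvate kinase could be read only in part. Several of its genes have near-identical copies elsewhere in the genome, and counts fell on both. Counts on Gapdh, Pgk1, Eno1 and Pgam1 were 56.9%, 56.1%, 8.6% and 6.6% of the counts on these genes and their copies, and those on Gpi1 and Ldhb 12.3% and 26.5%. Gapdh, a very abundant transcript in most cells, had between 4.80 and 16.9 CPM, and with its 80 copies added the group means were still only between 12.1 and 16.5 CPM. Levels of these 6 genes are therefore uncertain. For Pgam1, whose copy Pgam1-ps2 matches it closely, the summed level was 6.01 ± 0.909 CPM (SD, n = 3) in P2-, 7.99 ± 0.357 in WT and 15.5 ± 2.44 in P2+ PreMegEs, and the sum was higher in P2+ than in P2- cells (1.37 ± 0.20, edgeR adjusted p = 7.63e-04). This difference lay in the counts on the copy (1.46, edgeR adjusted p = 4.22e-04). Counts on Pgam1 itself had means of 0.562 CPM in P2- and 0.621 CPM in P2+.

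**Figure D3:**
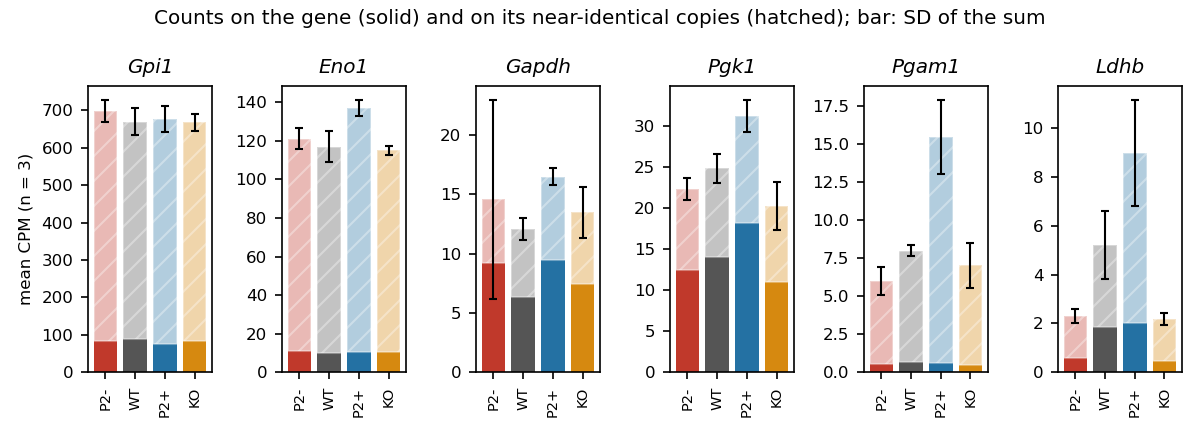
Mean CPM of 3 libraries (y axis, a separate scale for each gene) counted on Gpi1, Eno1, Gapdh, Pgk1, Pgam1 and Ldhb (solid) and on their near-identical copies (hatched), with bars for the SD of the sum, in P2-, WT, P2+ and KO PreMegEs. For Gpi1, Eno1, Pgam1 and Ldhb most counts fell on copies, and the mean sums of all but Gpi1 were highest in P2+.

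Pgk1, which makes ATP in lower glycolysis, was higher in P2+ than in P2- cells counted alone (0.56 ± 0.15, edgeR adjusted p = 0.0183) and with its copies (0.50 ± 0.11, edgeR adjusted p = 7.76e-03). Bpgm, the mutase that makes the bisphosphoglycerate with which red cells lower the oxygen affinity of hemoglobin, was also higher in P2+ cells (0.43 ± 0.12, edgeR adjusted p = 0.0192), with between 35.9 and 38.9 CPM in P2- and 43.5 and 56.4 CPM in P2+ libraries. Its level in P2- was also below that in WT cells (-0.35 ± 0.09, edgeR adjusted p = 0.0286). The Bpgm call between P2+ and P2- cells was lost without P2- replicate 1 or 3 (0.39 and 0.42, edgeR adjusted p = 0.0637 and 0.0565). The Pgk1 call, counted alone, was lost without P2+ replicate 1, P2+ replicate 3 or P2- replicate 1 (0.55, 0.55 and 0.46, edgeR adjusted p = 0.0506, 0.0503 and 0.0636). Eno1 with its copies had 0.19 ± 0.07 (edgeR adjusted p = 0.0613).

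Ldha, which turns pyruvate into lactate, had the highest level per kilobase of the 41 genes in WT PreMegEs, at 123 RPKM. This ranking used the counts on each gene alone, and levels of the genes with near-identical copies are uncertain. Ldha lay between 407 and 435 CPM in all P2+ and P2- libraries, and its log2 fold change was 0.03 ± 0.07 (edgeR adjusted p = 0.778). Ldhb, the heart type, had 0.239, 0.576 and 0.988 CPM in P2-, 1.25, 2.36 and 1.97 CPM in WT, 2.01, 1.04 and 2.97 CPM in P2+ and 0.611, 0.599 and 0.182 CPM in KO PreMegEs. P2- and KO libraries lay below WT and P2+ libraries, but these levels are near the limit of 3 counts, between 0.207 and 0.288 CPM. Counted alone, Ldhb passed the filter on low counts only through the WT or P2+ libraries, where it was high, so its direction against P2- or KO cells was fixed by the filter. Without that filter its log2 fold change was 1.70 from P2- to P2+ and -1.97 from WT to KO (edgeR adjusted p = 0.0603 and 0.0160). Ldhb differed from P2- to P2+ by 1.71 ± 0.60 (edgeR adjusted p = 0.0515), by 1.76 ± 0.53 with replicates paired (edgeR adjusted p = 0.0139) and by 1.97 ± 0.27 with its copy Gm5514 added (edgeR adjusted p = 6.07e-04).

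The carriers that move lactate and pyruvate across the membrane moved in opposite directions. Slc16a1 encodes MCT1 and had 290, 262 and 278 CPM in P2-, 180, 193 and 191 CPM in WT, 164, 150 and 147 CPM in P2+ and 245, 233 and 247 CPM in KO PreMegEs. No groups overlapped, and Slc16a1 was 1.79-fold lower in P2+ than in P2- cells (-0.84 ± 0.08, edgeR adjusted p = 6.57e-05). Slc16a3 encodes MCT4, the carrier of highly glycolytic cells, and had 8.12, 6.82 and 9.74 CPM in P2-, 14.4, 11.9 and 11.6 CPM in WT, 13.5, 14.8 and 15.3 CPM in P2+ and 9.52, 8.47 and 7.37 CPM in KO PreMegEs. P2- and KO libraries lay below WT and P2+ libraries, and Slc16a3 was 1.78-fold higher in P2+ than in P2- cells (0.83 ± 0.18, edgeR adjusted p = 6.43e-03). MCT1 still made up 92.7% ± 0.827 (SD, n = 3) of the RPKM of the pair in P2+ PreMegEs.

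Where pyruvate enters mitochondria, Pdha1 and Pdhb, the subunits of the first enzyme of pyruvate dehydrogenase, were lower in P2+ than in P2- cells (-0.34 ± 0.08 and -0.38 ± 0.13, edgeR adjusted p = 0.0102 and 0.0462). Pdk1 and Pdk3, kinases that switch this complex off, were higher (0.41 ± 0.11 and 0.30 ± 0.10, edgeR adjusted p = 0.0201 and 0.0491). Pdk2 was at -0.27 ± 0.20 (edgeR adjusted p = 0.340). These differences were at most 1.33-fold, and each of the 4 calls was lost in at least 1 alternative. Pdhb was at 70.0, 91.8 and 70.9 CPM in P2-, and without the high P2- replicate 2 its log2 fold change was -0.24 (edgeR adjusted p = 0.117).

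Each of the 7 pentose phosphate genes among the 41 was lower in P2+ than in P2- PreMegEs, while 17.0% of all genes were lower. Of further genes linked to the pathway, H6pd, a glucose phosphate dehydrogenase of the endoplasmic reticulum, was at -0.23 (edgeR adjusted p = 0.188), and the sugar kinase genes Shpk and Rbks and the ribose phosphate user Prps1 did not pass the test either (-0.32, -0.70 and -0.03, edgeR adjusted p = 0.256, 0.189 and 0.781). Prps2, the more abundant of the Prps genes, was at 0.23 (edgeR adjusted p = 0.0654). In the oxidative branch, Pgls, the lactonase, had 88.0, 95.3 and 85.2 CPM in P2-, 79.9, 85.3 and 72.1 CPM in WT and 57.8, 50.9 and 56.1 CPM in P2+ PreMegEs. P2+ libraries lay below those of both other groups, and Pgls was lower than in P2- (-0.69 ± 0.09, edgeR adjusted p = 3.96e-04) and WT cells (-0.52 ± 0.09, edgeR adjusted p = 3.08e-03). G6pdx, the glucose phosphate dehydrogenase that commits sugar to the pathway, had between 73.6 and 79.1 CPM in P2-, 66 and 68 in WT and 43.7 and 54.3 in P2+ libraries (-0.60 ± 0.10 from P2- to P2+, edgeR adjusted p = 1.71e-03). Pgd, the other NADPH-making enzyme, differed least (-0.24 ± 0.08, edgeR adjusted p = 0.0369), and its call was lost without P2- replicate 2, P2- replicate 3 or any of the P2+ replicates.

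In the non-oxidative branch, Taldo1, the transaldolase, had 96.0, 104 and 86.2 CPM in P2-, 73.0, 66.3 and 82.6 CPM in WT and 51.3, 62.7 and 51.2 CPM in P2+ PreMegEs. These 3 groups did not overlap, KO libraries had 81.4, 80.0 and 84.9 CPM, and Taldo1 was 1.71-fold lower in P2+ than in P2- cells (-0.78 ± 0.11, edgeR adjusted p = 7.18e-04). Tkt, the transketolase, was lower as well (-0.44 ± 0.08, edgeR adjusted p = 2.34e-03), as were Rpia, the ribose phosphate isomerase (-0.42 ± 0.08, edgeR adjusted p = 2.57e-03), and Rpe, the epimerase (-0.25 ± 0.07, edgeR adjusted p = 0.0220). Rpe lost its call in 4 of the libraries left out in turn. Ikbkg and Kansl1l, on the other strand, overlap 13.6% and 17.9% of the exon bases of G6pdx and Rpe. Ikbkg had means of 95.1 CPM in P2- and 92.6 CPM in P2+ cells, and Kansl1l 83.6 and 62.3 CPM.

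**Figure D4:**
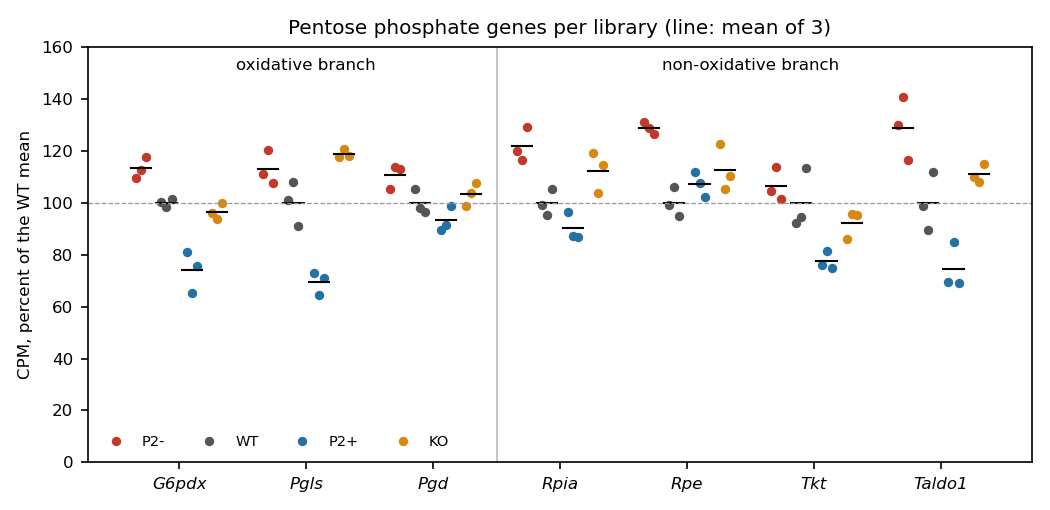
CPM of the 7 pentose phosphate genes in each library as a percent of the WT mean (y axis), for P2-, WT, P2+ and KO PreMegEs, with lines at the mean of 3. P2+ points lie below P2- points for all 7 genes, and the KO points overlap those of WT for 6 genes and lie above them for Pgls.

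WT means lay between those of the reporter groups for the genes that differed most. On the CPM scale, the WT mean covered 58.9% of the distance between P2- and P2+ means for Pklr, 43.6% for Pkm, 33.6% for Slc2a1, 68.9% for Aldoc and 96.0% for Hk3. The place of Hk3 depended on single libraries, since its log2 fold change of P2+ over WT was -0.59 without P2+ replicate 1 and 0.56 without WT replicate 1, and it did not pass the test in either case. Against WT, P2+ PreMegEs had 5 of 39 genes higher and 6 lower, with 9.45% and 7.07% of all genes as background, and Pklr was the gene changed at least 2-fold (3.84% of all genes). The higher genes were Slc2a1, Hk2, Pfkfb3, Pkm and Pdk1, and the lower ones Pklr, Slc16a1, G6pdx, Pgls, Tkt and Taldo1. The calls of Pfkfb3, Slc16a1, Tkt and Taldo1 were lost when some single libraries were left out. P2- PreMegEs had 8 of 39 genes higher than WT and 4 lower, with 6.85% and 9.60% as background, and Pklr, Hk3 and Pkm were changed at least 2-fold (4.68% of all genes). Hk3 had passed the filter mainly through WT libraries, where it was high, since of P2- only replicate 2 reached 1 CPM. The higher genes were Hk1, Pfkm, Pklr, Slc16a1, Pdhb, Rpia, Rpe and Taldo1, and the lower ones Slc2a3, Hk3, Bpgm and Pkm. Of these calls, those of Pklr, Pkm, Slc16a1 and Rpe held with each library left out in turn. That of Hk3 held as well, but the filter favored its direction. These comparisons share the WT libraries, and the wild type and reporter mice also differed in Runx1 genotype.

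Whether the KO libraries were prepared and sequenced together with the WT libraries is not given in the sources used here, so a batch difference and the genotype cannot be told apart in the values that follow. In RUNX1C KO PreMegEs, 13 of 38 genes differed from WT, 4 higher and 9 lower, with 6.18% and 8.76% of all genes as background. Pklr, Hk3 and Ldhb were changed at least 2-fold, against 3.41% of all genes, but Ldhb had passed the filter only through WT. The median log2 fold change was -0.11 over the 38 genes and -0.00 over all genes. Pklr was 2.18-fold higher in KO than in WT cells (1.13 ± 0.11, edgeR adjusted p = 1.17e-06), and Pkm was 1.73-fold lower (-0.79 ± 0.09, edgeR adjusted p = 9.24e-06). Seen from P2-, the KO mean covered 7.75% of the distance to P2+ for Pklr and 9.78% for Pkm. Erythroid and megakaryocyte genes moved as well, with 5 of 8 tested erythroid genes higher and 6 of 7 tested megakaryocyte genes lower in KO than in WT cells. Of 8 tested neutrophil and monocyte genes 6 were lower in KO, of 5 lymphoid genes 2 were lower, of 5 stem cell genes 2 were lower, and both tested mast and basophil genes were higher. Other mast and basophil genes had lower means in KO than in WT but did not pass the filter. Fcer1a had 3.76 CPM in WT and 0.0855 in KO, Gzmb 0.803 and 0.0, Prss34 0.606 and 0.0, and Mcpt8 0.206 and 0.119. The part of these marker differences in the KO values was not tested.

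Among the other genes, Slc16a1 was higher in KO than in WT PreMegEs (0.35 ± 0.06, edgeR adjusted p = 6.31e-04), without overlap of the libraries. Hk1, at 566, 626 and 583 CPM in KO libraries, was also above WT in all 3 (0.33 ± 0.06, edgeR adjusted p = 1.50e-03). Pgls, at 93.0, 95.6 and 93.5 CPM in KO libraries, was the only pentose phosphate gene called, and it was higher (0.24 ± 0.08, edgeR adjusted p = 0.0400), a call lost when 5 of the 6 libraries were left out in turn. Hk2, at 34.4, 29.3 and 34.6 CPM in KO libraries, was lower than in WT (-0.47 ± 0.11, edgeR adjusted p = 7.09e-03), and the libraries did not overlap. In P2- PreMegEs the same gene stood at -0.05 ± 0.13 against WT (edgeR adjusted p = 0.823); the difference between KO and P2- cells was not tested.

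Slc2a1 had 12.6, 14.6 and 13.2 CPM in KO libraries, below all WT libraries (-0.59 ± 0.15, edgeR adjusted p = 0.0111), and the call was lost without KO replicate 1 or WT replicate 3. Slc2a3, Pfkp, Bpgm and Slc16a3 were lower as well, with log2 fold changes of -0.23, -0.60, -0.30 and -0.59. The Bpgm call was lost when any of the 6 libraries was left out, that of Slc2a3 with any but WT replicate 1 left out, that of Slc16a3 without KO replicate 2 or 3 or WT replicate 1 or 2, and that of Pfkp without KO replicate 2 or WT replicate 2. The 3 KO libraries had 109, 106 and 112 CPM of Slc2a3, below all WT libraries. Hk3 had 2.88, 2.05 and 2.37 CPM in KO libraries, where the sum of neutrophil and monocyte genes was also below that in WT, between 79.2 and 128 CPM against 176 and 306 (-1.40 ± 0.35, edgeR adjusted p = 0.0109). Without WT replicate 1, the library with most Hk3, the log2 fold change was -0.88 (edgeR adjusted p = 0.111), and without KO replicate 3 it was -1.38 (edgeR adjusted p = 0.0528). Ldhb, which passed the filter through WT alone, was at -1.97 ± 0.54 (edgeR adjusted p = 0.0191), and it was lower with its copy added (-1.25 ± 0.31, edgeR adjusted p = 0.0114). Its own call was lost without KO replicate 3 (-1.60, edgeR adjusted p = 0.0809). Aldoc, at 2.53, 1.45 and 2.09 CPM, did not pass the test (-0.78 ± 0.34, edgeR adjusted p = 0.146).

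**Figure D5:**
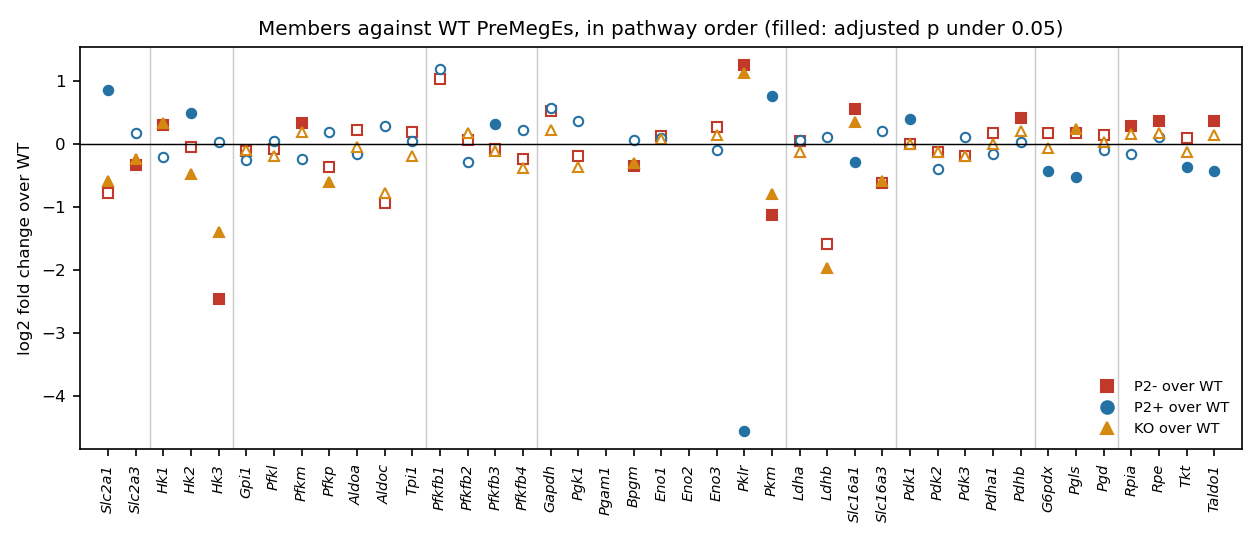
Log2 fold change over WT (y axis) of each gene in pathway order (x axis) for P2- (squares), P2+ (circles) and KO PreMegEs (triangles), with filled symbols for an adjusted p under 0.05. At Pklr the P2- and KO symbols lie at 1.25 and 1.13 and the P2+ symbol at -4.55, and at Pkm they lie at -1.12, -0.79 and 0.77; all 3 share the WT libraries.

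Other genes of these pathways were taken from a list of 52, of which 32 were tested between P2+ and P2- PreMegEs. P2+ cells had 6 of them higher and 9 lower, or 18.8% and 28.1%, against 20.1% and 17.0% of all genes, so the share of higher genes was close to that of all genes. Further transporters of the sugar and monocarboxylate families differed in direction. Slc2a8 was lower in P2+ than in P2- cells (log2 fold change -0.90, edgeR adjusted p = 0.0390) and higher in KO than in WT cells (0.87, edgeR adjusted p = 1.00e-03), while Slc2a9 was higher in P2+ than in P2- cells (0.89, edgeR adjusted p = 1.90e-03) and lower in KO than in WT cells (-0.45, edgeR adjusted p = 0.0234). Slc2a10 and Slc16a7 were higher in P2+ than in P2- cells (2.21 and 1.15, edgeR adjusted p = 4.78e-03 and 1.38e-03), as was Pgm2 (1.10, edgeR adjusted p = 3.96e-04), while Pgm1 was lower (-1.02, edgeR adjusted p = 2.96e-04). Slc2a10 lay between 0.478 and 1.91 CPM in P2- and 4.28 and 5.87 CPM in P2+ libraries. It passed the filter on low counts mainly through P2+, which favored its direction. Minpp1, a phosphatase that can also act on bisphosphoglycerate, was at 359 ± 44.2 CPM (SD, n = 3) in P2-, 185 ± 9.37 in WT, 103 ± 2.14 in P2+ and 334 ± 9.45 in KO PreMegEs. It was lower in P2+ than in P2- cells (-1.79, edgeR adjusted p = 4.66e-06) and higher in KO than in WT cells (0.85, edgeR adjusted p = 4.96e-08). Dlat and Dld, the remaining catalytic subunits of pyruvate dehydrogenase, and Bsg, the partner that brings MCT1 to the membrane, were lower in P2+ than in P2- cells (-0.45, -0.34 and -0.27, edgeR adjusted p = 1.63e-03, 0.0107 and 0.0230).

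Of 15 regulators of glucose use, 13 were tested between P2+ and P2- PreMegEs, and 2 were higher and 5 lower in P2+ cells. These were 15.4% and 38.5%, against 20.1% and 17.0% of all genes. Egln3, an oxygen-sensing hydroxylase that is itself a target of the hypoxia-inducible factors, was at 2.31 ± 0.477 CPM (SD, n = 3) in P2-, 9.50 ± 0.332 in WT, 19.6 ± 3.90 in P2+ and 4.78 ± 1.92 in KO PreMegEs (3.09 from P2- to P2+, edgeR adjusted p = 2.29e-05). Hif1a was also higher in P2+ cells (0.45, edgeR adjusted p = 1.76e-03). Klf1, the erythroid factor, was lower (-2.71, edgeR adjusted p = 1.31e-06), as were Myc (-0.98, edgeR adjusted p = 3.01e-04), the glucose-responsive Txnip and Arrdc4 (-0.67 and -0.96, edgeR adjusted p = 1.56e-03 and 1.26e-03) and Mlx (-0.48, edgeR adjusted p = 7.49e-03). In KO PreMegEs Klf1 and Egln1 were higher than in WT (0.69 and 0.42, edgeR adjusted p = 3.85e-07 and 0.0167), Egln3 was lower (-1.0, edgeR adjusted p = 0.0116), and Myc and Txnip were at 0.09 and 0.02 (edgeR adjusted p = 0.393 and 0.926).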

How the data were processed

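PreMegE RNA-Seq counts per gene were deposited by the authors without normalization. The authors made strand-specific poly(A) libraries, sequenced paired reads of 75 bases, which Bowtie2 aligned to GRCm38, and used featureCounts with Ensembl release 76. The strand setting and the treatment of reads with several alignments are not given in the sources used here. Samples were grouped by their titles. No column belonged to another series.

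Genes with at least 1 CPM in 3 of the 6 libraries compared were tested with edgeR 4.0.16 in R 4.3.3 (TMM scaling, quasi-likelihood F-test on group, Benjamini-Hochberg adjustment over all genes), and a gene was called at an adjusted p under 0.05. RPKM used the exonic length of GENCODE vM21, in which 40254 of 41128 genes were found. On simulated data, 72.0%, 81.0%, 70.0% and 83.5% of 200 genes with a 2-fold change were recovered for P2+ and P2-, P2+ and WT, P2- and WT, and KO and WT. Copies were annotated genes that match a member at 95% identity or more over at least 300 bases and 50% of their exons. Promoter sequences are from RefSeq on GRCm38.p6.

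For P2+ and P2-, deviations from the group mean were correlated between libraries of equal replicate number over 13272 genes (r = 0.386, 0.572 and 0.405), so these numbers pair the samples, and a fit with the replicate as a block is given where it changed a call. All other values and counts for P2+ and P2- are from the fit on group alone, which leaves this pairing out. Alternatives were DESeq2 1.42.0, the edgeR exact test, other size factors, no filter, 1 fit over 12 libraries, the block, copies added, and each library left out in turn.

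The members and lists were chosen with earlier results of these data known. Values in every library are given for genes changed at least 2-fold in a comparison, the 4 with the smallest p in each direction between P2+ and P2-, and the 3 in each direction between KO and WT. A library is a pool of 3 mice, and whether pools were sorted on different days is not given in the sources used here. A count limit of 3 covers counting error only.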

Additional observations from a re-analysis of the deposited data

How the results depend on the processing

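No call reversed under any alternative. Called in every alternative run were 15 of 26 genes between P2+ and P2-, 7 of 11 between P2+ and WT, 5 of 12 between P2- and WT and 5 of 13 between KO and WT. Pklr and Pkm were among these in all 4 comparisons, and Slc16a1 in all but P2+ against WT. Between P2+ and P2- the calls of Aldoc, Bpgm, Pdha1, Pdhb, Pdk1, Pdk3, Pfkfb3, Pgd, Pgk1 and Rpe were lost in at least 1 alternative, and Hk3, called in the others, did not pass the filter without both replicates 2. Leaving out 1 library at a time, the genes higher in P2+ than in P2- ranged from 6 to 13 (the fewest without P2- replicate 1, and 7 without P2+ replicate 1), those lower from 11 to 13 and those changed 2-fold from 4 to 6. Leaving out both replicates 2 gave 3 genes changed 2-fold. Between P2+ and WT the genes lower ranged from 3 (without WT replicate 3 or P2+ replicate 3) to 7 and those changed 2-fold from 1 to 2. Between P2- and WT those higher ranged from 3 (without WT replicate 1 or 2) to 7 and those lower from 2 (without WT replicate 2 or 3) to 6. Between KO and WT those lower ranged from 4 (without WT replicate 2 or KO replicate 3) to 6 and those changed 2-fold from 0 (without WT replicate 1) to 3. The edgeR exact test gave 8 genes lower in P2- than in WT. With 1 fit over 12 libraries, 3 genes were lower in KO than in WT and 1 was changed 2-fold. The replicate block gave 14 higher and 15 lower for P2+ over P2-. Replicate numbers of WT libraries did not pair with those of other groups (r between -0.085 and 0.159), and there the block gave 5 higher and 2 lower for P2- over WT, and no member changed its call between KO and WT. The cause of these shifts was not tested. Leaving out a library leaves 2 against 3 samples, so fewer calls are part of its construction. Both replicates 2 were left out together for P2+ against P2- only, since for each reporter group against WT this equals leaving out 1 library. Counts on Pgam1, Eno2, Ldhb, Pfkfb1 and Hk3 were near or under 1 CPM in some libraries, which limits the precision of their values, and for Pgam1 and Ldhb most counts fell on a near-identical copy.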
